A study of Mus musculus with 6 samples.

Results

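The haematopoietic growth factor receptors examined were 8 genes of sorted mouse leukaemic blasts: Csf1r, Csf2ra, Csf2rb, Csf2rb2, Csf3r, Il3ra, Flt3 and Kit. They were chosen by name, as the receptors of the factors that drive myeloid growth, and matched through their Entrez gene IDs. The choice was made with earlier results of these data known. All 8 were found among the 24454 genes of the table, and all 8 passed the filter on low values. The 3 Stat3β TG libraries came from MLL-AF9+ blasts of C57BL/6 donor cells that carry Mx1-Cre recombinase and a Stat3β transgene, and the 3 WT libraries from MLL-AF9+ blasts of wild-type littermates. All 6 shared the rest of the design. Fetal liver cells were transformed with a retrovirus for the fusion oncogene MLL-AF9 and grown in immunocompromised NSG hosts, whose T, B and NK cells are missing but whose own myeloid cells remain. Polyinosine-polycytidine, an interferon inducer, was injected to switch on Cre, and Venus+ blasts were sorted from bone marrow. The Mx1 promoter is active in any cell that responds to interferon, so Cre is not limited to 1 cell type. The labels name Cre for the Stat3β TG group alone, so Cre and the transgene cannot be told apart. Separate donors are not stated for the replicates, and a p-value here reflects library-to-library spread, which may be technical.

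Growth factor receptors of myeloid cells fall into a pair of structural families. Class I cytokine receptors have no kinase of their own and signal through JAK kinases and STAT proteins. Ligand-specific alpha chains for GM-CSF (Csf2ra) and IL-3 (Il3ra) pair with a shared beta chain (Csf2rb), and the mouse has a second beta chain that serves IL-3 alone (Csf2rb2). The receptor for G-CSF (Csf3r) pairs with itself and is a known activator of STAT3. Class III receptor tyrosine kinases, which carry the kinase in the receptor, are represented by those for M-CSF (Csf1r), FLT3 ligand (Flt3) and stem cell factor (Kit). Kit and Flt3 are typical of progenitors, Csf1r of the monocyte lineage and Csf3r of the granulocyte lineage.

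The libraries held 21809788 to 51934498 recovered reads, and every receptor was covered by at least 827 reads in each library, up to 39843. Counting error is therefore small beside the spread between libraries. WT 1 lay with Stat3β TG on the first principal component of all tested genes, which placed Stat3β TG 1 to 3 at -31.4, -16.3 and -28.2, WT 1 at -38.3, and the other WT libraries at 64.4 and 49.7. The summed level of 4 Y-linked genes was 8781 to 9465 normalized counts in Stat3β TG, against 58.8, 11012 and 71.8 in WT 1, WT 2 and WT 3, so sex-linked expression split the WT libraries in another way. The X-linked gene Xist was at 42699 in WT 1 and 45196 in WT 3, at 835 in WT 2 and at or under 71.6 in Stat3β TG. Sex-linked expression and group thus coincided in part, and their shares in the receptor differences cannot be told apart. Stat3 averaged 9670 ± 1555 in Stat3β TG and 11683 ± 4086 in WT (SD, n = 3 each; limma adjusted p = 0.771). Because both splice forms are summed per gene, this level does not check the transgene.

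The adjacent beta chain genes on chromosome 15 are near copies, which matters for how their reads are split. Over 2628 aligned coding bases they were 95.2% identical, with 125 mismatches, and 242 coding bases in a row were identical. Of all stretches of 50 bases in the annotated transcripts, 12.3% of those of Csf2rb and 18.4% of those of Csf2rb2 occur in the other gene. Reads that lie wholly within these stretches cannot be assigned, while longer or paired reads may reach a mismatch. How the counting treated shared reads is not stated, so both genes' values are uncertain. No other pair among the 8 genes shared such a stretch. The 60-base coding window in which the genes differ most is shown, with the 13 mismatched bases in capitals, starting at coding base 304 of Csf2rb and 307 of Csf2rb2 (GENCODE, GRCm38, coding strand).
Csf2rb: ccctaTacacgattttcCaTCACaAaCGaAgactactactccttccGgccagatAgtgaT
Csf2rb2: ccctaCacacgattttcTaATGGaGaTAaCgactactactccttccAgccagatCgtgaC

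Promoter windows around a start of transcription were matched for 6 of the 8 genes in RefSeq (GRCm38.p6), with the exceptions of Csf1r and Csf2rb. They are shown for Csf2ra and Csf3r, the members with the smallest unadjusted p in the comparison given further on, and for Flt3, the member that varied most between libraries. Capitals mark matches, on either strand, to the PU box GAGGAA (the core bound by the myeloid factor PU.1), the STAT motif TTCNNNGAA, the RUNX motif TGTGGT or the C/EBP motif TTGCNNAA. The windows are chr19:61228369-61228668 on the minus strand, chr4:126024409-126024708 on the plus strand and chr5:147400440-147400739 on the minus strand.
Csf2ra: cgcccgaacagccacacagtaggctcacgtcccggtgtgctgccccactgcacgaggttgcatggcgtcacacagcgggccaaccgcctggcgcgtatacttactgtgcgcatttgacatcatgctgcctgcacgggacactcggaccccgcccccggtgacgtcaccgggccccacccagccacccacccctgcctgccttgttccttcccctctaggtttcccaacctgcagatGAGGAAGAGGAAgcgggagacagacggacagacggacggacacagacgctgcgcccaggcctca
Csf3r: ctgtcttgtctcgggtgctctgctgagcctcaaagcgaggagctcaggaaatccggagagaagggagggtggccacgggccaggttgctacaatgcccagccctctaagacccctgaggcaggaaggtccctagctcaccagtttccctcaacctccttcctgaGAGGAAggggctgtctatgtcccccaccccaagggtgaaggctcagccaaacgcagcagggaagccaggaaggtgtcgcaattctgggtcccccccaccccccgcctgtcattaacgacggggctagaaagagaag
Flt3: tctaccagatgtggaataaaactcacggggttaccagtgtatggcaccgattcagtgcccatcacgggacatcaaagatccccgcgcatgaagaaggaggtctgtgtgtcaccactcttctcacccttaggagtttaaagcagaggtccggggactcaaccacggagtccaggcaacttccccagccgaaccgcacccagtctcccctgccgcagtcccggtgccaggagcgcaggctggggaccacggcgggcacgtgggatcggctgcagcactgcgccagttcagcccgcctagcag
The Csf2ra window holds 2 adjacent PU boxes just before the start it is drawn around. The Csf3r window holds 1, while the Flt3 window holds none of the 4 motifs. These starts are not always the outer ends of the genes. The Csf3r and Il3ra windows lie wholly inside the gene coordinates given further on, and the start used for Csf2ra also lies inside its gene. Among the other matched members, the Csf2rb2 window holds 2 PU boxes and a STAT match, and the Il3ra window a C/EBP match. Both Kit windows, starting at 75574737 and 75574741 on chromosome 5, overlap and hold the same PU box. Within a window, no match overlapped another. Over all 32851 windows of the table, 28.3% hold a PU box, 8.30% the STAT motif, 16.8% the RUNX motif and 10.8% the C/EBP motif, so such matches are common. They describe letters in a window and not binding.

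All 8 receptors were expressed in both groups, and Csf2ra was the highest per length in each of the 6 libraries. On the scale of normalized counts per kilobase of annotated exon, Csf2ra averaged 12651 ± 767 in Stat3β TG and 8366 ± 1895 in WT (SD, n = 3 each), above 99.3% and 98.9% of tested genes. In Stat3β TG the order of mean levels per kilobase went on with Csf2rb at 1870, Csf3r at 1848, Csf1r at 1556, Flt3 at 1457, Il3ra at 1151, Kit at 573 and Csf2rb2 at 494. In WT it went on with Csf2rb at 2561, Flt3 at 2397, Csf3r at 1118, Il3ra at 1117, Csf1r at 1002, Csf2rb2 at 568 and Kit at 536. In Stat3β TG only Csf2ra from Csf2rb and Il3ra from Kit were neighbours whose libraries did not overlap, and in WT only Csf2ra from Csf2rb. Flt3 moved most in this order, since it was the second highest of the 8 in WT 2 and WT 3, the lowest in WT 1 and between the third and the sixth in Stat3β TG.

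**Figure D1:**
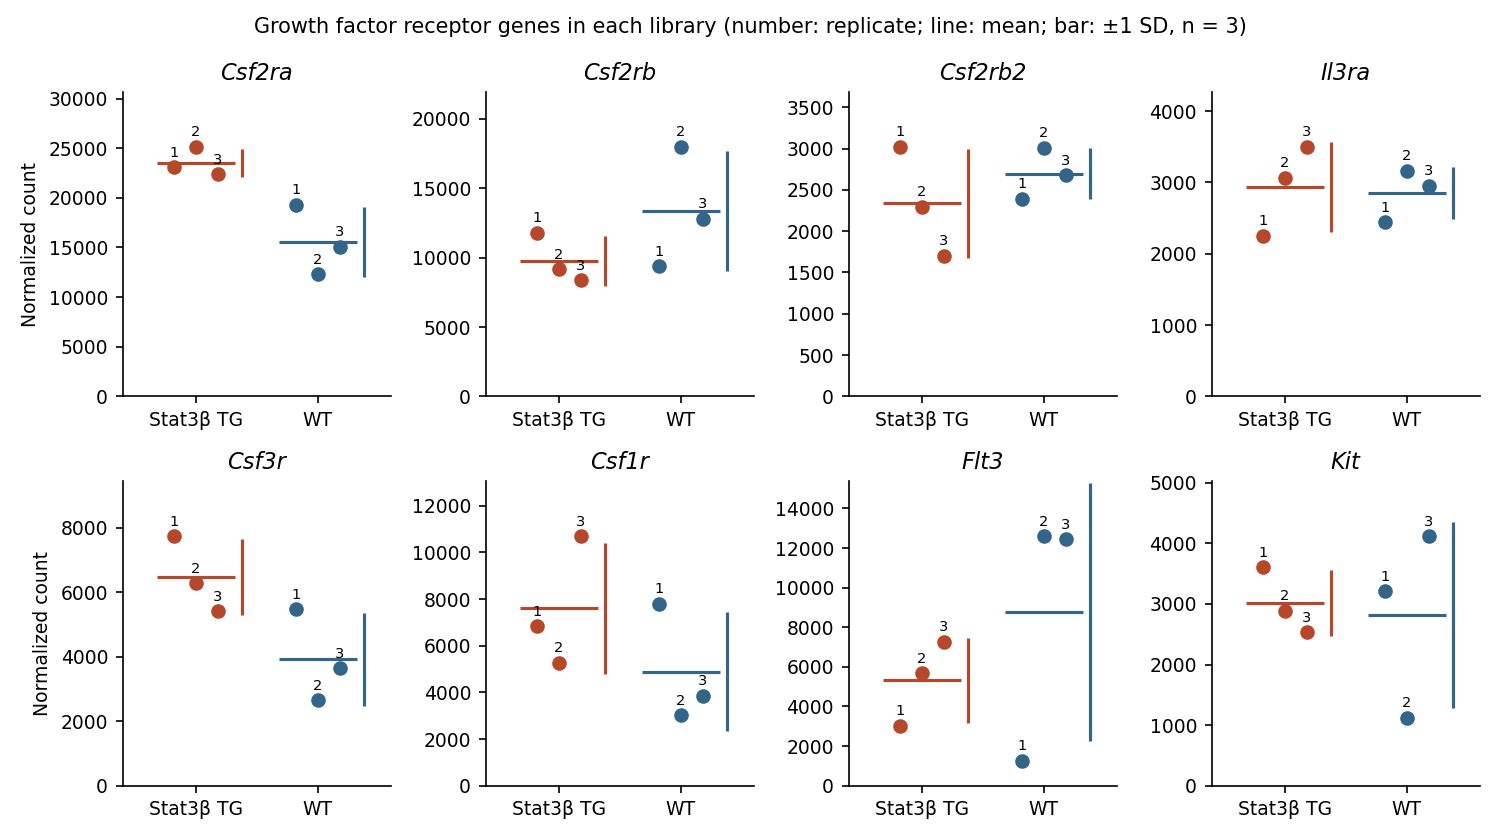
Normalized counts of the 8 receptor genes (vertical axes start at 0 and differ between panels) in the 3 Stat3β TG and 3 WT libraries; points are libraries numbered by replicate, horizontal lines are means and vertical bars ±1 SD. Csf2ra is the gene whose Stat3β TG libraries, at 22385 to 25129, all lie above WT, and WT 1 lies apart from WT 2 and WT 3 in Csf1r, Csf3r and Flt3.

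No receptor differed between Stat3β TG and WT past the test over all 12642 tested genes. Limma with Benjamini-Hochberg adjustment passed 0 of the 8, and 0% of all genes. At an unadjusted p under 0.05 there were 2 of 8, Csf2ra and Csf3r, both higher in Stat3β TG, against 6.10% of all genes over both directions and 3.56% in the higher direction. The groups did not overlap in 1 of 8, Csf2ra, against 10.8% of all genes; 5.87% of all genes did not overlap and were higher. Run on the recovered reads, edgeR and DESeq2 each passed 0 of the 8, and DESeq2 passed 0.134% of all genes. Both gave the same 2 an unadjusted p under 0.05, against 780 of the 12642 genes by edgeR and 970 by DESeq2. The direction of all genes at that unadjusted p depended on the tool, with 450 higher and 321 lower by limma and 328 higher and 452 lower by edgeR. The median log2 fold change of the 8 was 0.15, with 5 higher and 3 lower, against 0.01 over all genes, of which 51.4% were higher. By edgeR the median of the 8 was 0.062, with 5 higher and 3 lower.

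Among the alpha chains, Csf2ra was the most separated member. The gene (Entrez 12982, chromosome 19, 61217191 to 61228461, minus strand, GRCm38) encodes the chain that binds GM-CSF. Csf2ra had 23076, 25129 and 22385 normalized counts in Stat3β TG 1 to 3, against 19294, 12291 and 15095 in WT 1 to 3. The lowest Stat3β TG library was above the highest WT library, WT 1. Relative to WT, Stat3β TG was higher by a log2 fold change of 0.62 with a standard error of 0.19 (1.54-fold; unadjusted p = 0.0118, limma adjusted p = 0.668). It stayed between 0.46, without WT 2, and 0.79, without WT 1, when single libraries were left out. Il3ra (Entrez 16188, chromosome 14, 14345912 to 14355493, plus strand) encodes the chain that binds IL-3. Il3ra had 2253, 3067 and 3497 normalized counts in Stat3β TG 1 to 3, against 2440, 3162 and 2951 in WT 1 to 3. Its groups overlapped over nearly their whole range. Its log2 fold change was 0.03 with a 95% confidence interval of -0.43 to 0.49 (limma adjusted p = 0.965), and its sign turned without WT 1 (-0.08), Stat3β TG 2 (-0.01) or Stat3β TG 3 (-0.11).

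The beta chains had lower means in Stat3β TG without passing the test. Csf2rb (Entrez 12983, chromosome 15, 78325800 to 78351001, plus strand), the signalling chain shared by the receptors for GM-CSF, IL-3 and IL-5, had 11789, 9177 and 8369 normalized counts in Stat3β TG 1 to 3, against 9394, 17978 and 12792 in WT 1 to 3. WT 2 was the highest, and WT 1 lay within the range of Stat3β TG. The log2 fold change was -0.42 (standard error 0.25, limma adjusted p = 0.668), with -0.18 without WT 2 and -0.65 without WT 1. Csf2rb2 (Entrez 12984, chromosome 15, 78282507 to 78305721, minus strand), the IL-3 beta chain of the mouse, had 3020, 2296 and 1703 normalized counts in Stat3β TG 1 to 3, against 2394, 3008 and 2678 in WT 1 to 3. These groups overlapped, with both the highest and the lowest library in Stat3β TG. Csf2rb2 had a log2 fold change of -0.24 (standard error 0.22, limma adjusted p = 0.728). Csf2ra and Csf2rb, partners in the GM-CSF receptor, thus had means that differed in opposite directions, of which neither passed over all genes.

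Csf3r had the highest log2 fold change of the 8. The gene (Entrez 12986, chromosome 4, 126023441 to 126044975, plus strand) encodes the G-CSF receptor, which supports neutrophil production. Csf3r had 7743, 6282 and 5410 normalized counts in Stat3β TG 1 to 3, against 5471, 2645 and 3645 in WT 1 to 3. WT 1 was just above Stat3β TG 3, and WT 2 and WT 3 lay below every Stat3β TG library. Csf3r had a log2 fold change of 0.77 with a standard error of 0.27 (1.71-fold; unadjusted p = 0.0215, limma adjusted p = 0.668). The unadjusted p was 0.0801 without Stat3β TG 1, 0.0615 without WT 2 and 0.0571 without WT 3. In each of these 3 fits 1 of the 8 receptors, Csf2ra, remained at an unadjusted p under 0.05, against 3.00%, 3.12% and 3.15% of all genes. All 5 mature neutrophil markers were higher in Stat3β TG, as were 51.4% of all genes, and 2 of them had an unadjusted p under 0.05, against 3.56% of all genes in that direction. They summed to 98553, 61646 and 84964 in Stat3β TG against 98404, 16156 and 50648 in WT, with WT 2 and WT 3 the lowest, as in Csf2ra, Csf3r and Csf1r. Their part in the receptor differences was not tested, and in bulk samples fewer cells of a type and less RNA per cell cannot be told apart.

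Of the class III receptor tyrosine kinases, none had an unadjusted p under 0.05 with all libraries. Csf1r (Entrez 12978, chromosome 18, 61105572 to 61131139, plus strand), the M-CSF receptor of monocytes and macrophages, had 6827, 5270 and 10699 normalized counts in Stat3β TG 1 to 3, against 7798, 3032 and 3854 in WT 1 to 3. WT 1 lay inside the range of Stat3β TG and WT 2 and WT 3 below it. Its log2 fold change was 0.69 (standard error 0.38, limma adjusted p = 0.668), with 0.41 without WT 2 or Stat3β TG 3 and 1.09 without WT 1. Of 6 macrophage markers all 4 tested were higher, and the 6 summed to 4407 to 12100 in Stat3β TG and 1427 to 9672 in WT, of which Adgre1 and Vcam1 made most, while the defining C1qa, C1qb and C1qc stayed at or under 52.9. Their part in the Csf1r values was not tested. Flt3 (Entrez 14255, chromosome 5, 147330741 to 147400489, minus strand), the receptor for FLT3 ligand on early progenitors and dendritic cell precursors, had 3032, 5672 and 7276 normalized counts in Stat3β TG 1 to 3, against 1264, 12600 and 12432 in WT 1 to 3. The WT libraries lay on both sides of Stat3β TG, and the highest of the 6 libraries was 9.97-fold above the lowest, the widest ratio of the 8 genes. The log2 fold change was -0.22 (standard error 0.85, limma adjusted p = 0.932). On the recovered reads it was -0.73 by both edgeR and DESeq2. By limma its sign turned without Stat3β TG 1 (0.14), WT 2 (0.34) or WT 3 (0.33), and without WT 1 it was -1.32. By edgeR and DESeq2 it stayed negative with each library left out.

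Kit (Entrez 16590, chromosome 5, 75574987 to 75656722, plus strand), the receptor for stem cell factor, had 3605, 2889 and 2534 normalized counts in Stat3β TG 1 to 3, against 3214, 1120 and 4119 in WT 1 to 3. WT 2 was the lowest of the 6 and WT 3 the highest. The log2 fold change was 0.28 (standard error 0.44, limma adjusted p = 0.831), and it was -0.29 without WT 2. The SD of Kit was 18.1% of the mean in Stat3β TG and 54.6% in WT, and that of Flt3 was 40.2% and 74.1%. Relative to the mean, the SD was also larger in WT for Csf1r, Csf2ra, Csf2rb and Csf3r, and smaller for Csf2rb2 and Il3ra. For Csf1r the SD itself was larger in Stat3β TG, at 2796 normalized counts against 2548 in WT. These spreads rest on 3 libraries each and were not tested.

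**Figure D2:**
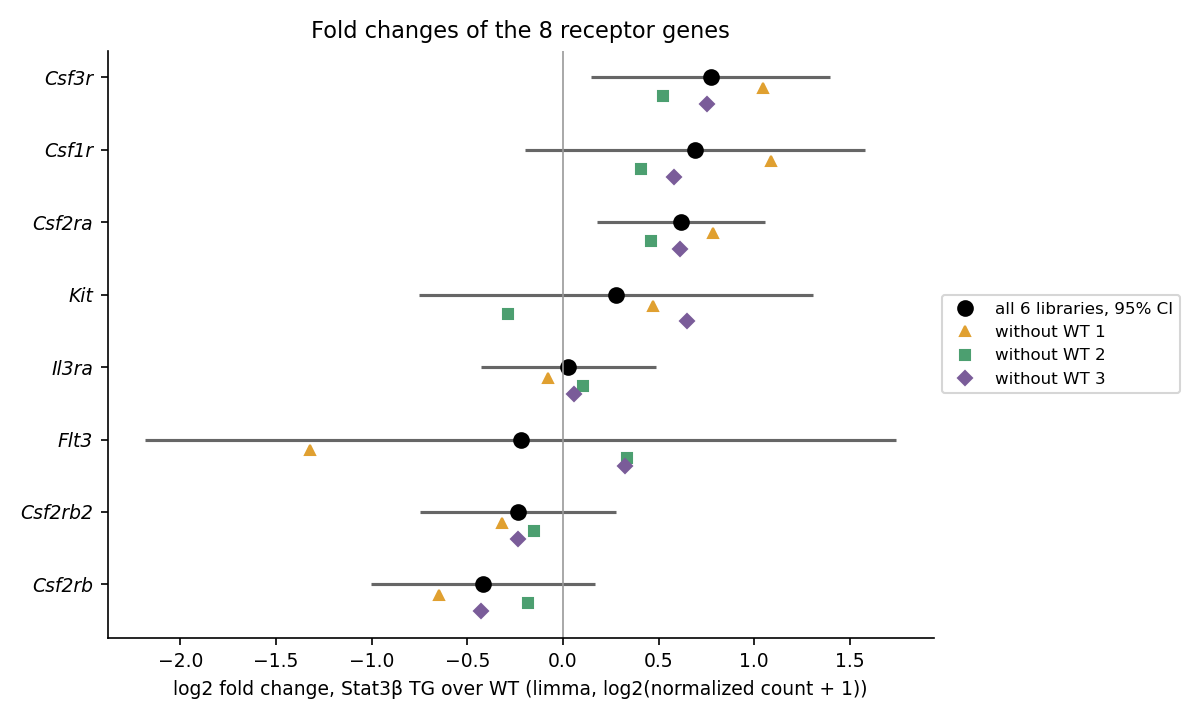
Log2 fold changes of Stat3β TG over WT for the 8 receptors (horizontal axis), ordered from the highest at the top; black points are the limma estimates with all 6 libraries and lines their 95% confidence intervals, and coloured marks are the estimates without WT 1, WT 2 or WT 3. Intervals of Csf3r and Csf2ra lie above 0 before adjustment, and Flt3 lies at -0.22 with all libraries, at -1.32 without WT 1 and at 0.34 without WT 2.

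The size of the receptor differences depended on WT 1. WT 1 lay within the range of Stat3β TG in 6 of the 8 genes, with the exceptions of Csf2ra, where it was lower, and Flt3, where it was also lower. Without WT 1, limma passed 1 of the 8 receptors, Csf3r (log2 fold change 1.05, adjusted p = 0.04998), against 2.74% of all genes, and DESeq2 passed 5, against 16.0% of all genes. By edgeR 0 of the 8 and 0% of all genes passed without WT 1. In that edgeR fit 5 of the 8 had an unadjusted p under 0.05, against 3360 of all 12642 genes. The 5 that DESeq2 passed were Csf2ra (log2 fold change 0.77), Csf3r (1.03) and Csf1r (1.13), higher in Stat3β TG, and Flt3 (-1.24) and Csf2rb (-0.66), lower. The same 5 had an unadjusted limma p under 0.05 in that fit, against 27.0% of all genes. With WT 2 as the only WT library, which shares the Y-linked reads of Stat3β TG, limma passed 3 of 8 (Csf2ra, Csf3r and Kit, at log2 fold changes of 0.94, 1.28 and 1.41), against 5.85% of all genes. That fit assumes that the lone WT library varies like the others. With WT 1 as the only WT library the values were 0.28 for Csf2ra, 0.23 for Csf3r, -0.10 for Csf1r and 1.98 for Flt3, and 0 of the 8 passed by limma, with 1, Flt3, at an unadjusted p under 0.05, against 3.82% of all genes. Every library was left out in turn, and WT 1 is described at length because it stood with Stat3β TG over all genes. Leaving out the WT library nearest to Stat3β TG was bound to widen the differences over all genes. The rise in genes and receptors that passed without WT 1 therefore follows from how that library was picked and lends them no support.

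Ratios of receptor genes within a library do not depend on how libraries were scaled. The ratio of Csf2ra to Csf2rb normalized counts was 1.96, 2.74 and 2.67 in Stat3β TG 1 to 3, against 2.05, 0.684 and 1.18 in WT 1 to 3. WT 1 lay within the range of Stat3β TG and the other WT libraries below it. The ratio of Csf3r to Kit was 2.15, 2.17 and 2.13 in Stat3β TG 1 to 3, against 1.70, 2.36 and 0.885 in WT 1 to 3. It hardly varied within Stat3β TG, with an SD of 0.01 on the log2 scale against 0.72 in WT, and the groups overlapped. The ratio of Csf1r to Flt3 was 2.25, 0.929 and 1.47 in Stat3β TG 1 to 3, against 6.17, 0.241 and 0.310 in WT 1 to 3, so that WT held both the highest and the lowest values. The ratio of Csf2rb2 to Csf2rb was 0.204 to 0.256 in Stat3β TG and 0.167 to 0.255 in WT. The groups overlapped in all 6 ratios computed, and no test was made of them.

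**Figure D3:**
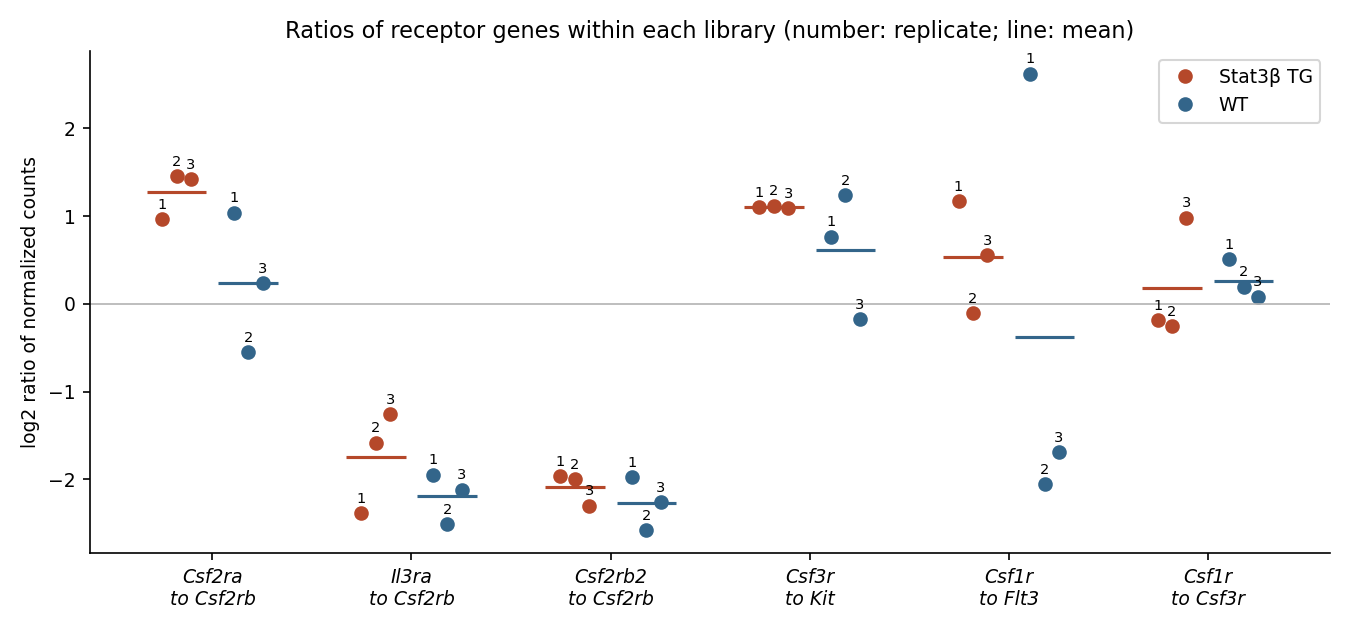
Log2 ratios of normalized counts between pairs of receptor genes within each library (vertical axis) for 6 pairs, with Stat3β TG left of WT; points are libraries numbered by replicate and lines are means. The Csf2ra to Csf2rb ratio averages 1.28 in Stat3β TG and 0.24 in WT on the log2 scale, and the Csf1r to Flt3 ratio of WT 1 lies at 2.63, apart from WT 2 and WT 3.

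Genes whose log2 levels over the 6 libraries were most like each receptor were taken from the 10269 genes with a mean of at least 100 normalized counts. For each receptor the 2 genes with the highest correlation were picked, so a high r was bound to follow from the picking. Since the libraries also fall into separate sets, these likenesses describe the 6 libraries, carry no p and do not show shared regulation. For Csf2ra they were Angel2 (Pearson r = 0.997, the same rank order) and Nmrk1 (r = 0.988, Spearman rho = 0.829), and for Csf3r they were Actn1 (r = 0.995) and Wrn (r = 0.994). Csf1r was most like Gnpnat1 (r = 0.999) and Cdc7 (r = 0.997), and Csf2rb most like Manea (r = 0.999) and Ppp6r3 (r = 0.998). Csf2rb2 was most like Helz and Braf (r = 0.990 and 0.989), and Il3ra most like Zfp868 and Tomm22 (r = 0.993 and 0.988). Flt3 was most like Entpd6 and Gabarapl1 (r = 0.989 and 0.984), and Kit most like Pold4 and Aldoa (r = 0.991 and 0.988). Actn1 spanned a wider range than Csf3r, at 3455, 1920 and 1535 normalized counts in Stat3β TG against 1751, 368 and 633 in WT. Spearman's rho was 0.771 for Tomm22 and 0.943 for Entpd6, Pold4 and Aldoa, and the genes other than these and Nmrk1 shared their receptor's rank order. None of these genes is another receptor of the 8. Pairs among the 8 receptors ran from r = -0.857 (Csf2rb and Csf1r) to r = 0.947 (Csf3r and Csf2ra), so Csf3r and Csf2ra are not independent results.

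The ligands of these receptors were mostly at or near 0. Of 8 ligands, 3 passed the filter on low values, and limma passed 0 of them, with 0 at an unadjusted p under 0.05. Flt3l, which encodes FLT3 ligand, had 578, 478 and 501 normalized counts in Stat3β TG 1 to 3, against 410, 353 and 359 in WT 1 to 3. Its groups did not overlap, with a log2 fold change of 0.47 and a standard error of 0.20 (unadjusted p = 0.0513, limma adjusted p = 0.668). Csf1, which encodes M-CSF, had 302, 241 and 337 in Stat3β TG, against 243, 248 and 189 in WT, and these groups overlapped. Csf3, which encodes G-CSF, was at 0.562 to 11.1 in Stat3β TG and 3.27 to 16.2 in WT. Il3 was at 0 in all 6 libraries, where a count of 0 allows up to 1.69 to 4.22 normalized counts. The genes for GM-CSF (Csf2), IL-5 (Il5), stem cell factor (Kitl) and IL-34 (Il34), a further ligand of the M-CSF receptor, were at or under 7.36 in every library.

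Other receptor chains of the same families went in both directions. Of 12 other class I chains 8 were tested, of which 6 were higher and 2 lower (median log2 fold change 0.55), 2 of them at an unadjusted p under 0.05, against 6.10% of all genes. By edgeR 5 were higher and 3 lower, with a median of 0.13. Il13ra1, a chain of the receptor for IL-4 and IL-13, had 1312, 1092 and 2066 normalized counts in Stat3β TG against 769, 1027 and 716 in WT (log2 fold change 0.79, standard error 0.27, limma adjusted p = 0.668). Il4ra, its partner, had 3006, 2322 and 2707 in Stat3β TG against 2796, 5798 and 4455 in WT (log2 fold change -0.64, standard error 0.26, limma adjusted p = 0.668). Il21r, the IL-21 receptor, was at 382 to 522 in Stat3β TG and at 616, 69.0 and 221 in WT 1 to 3. Il5ra, the alpha chain for IL-5 that pairs with Csf2rb, was at 26.8, 29.6 and 12.4 in Stat3β TG against 71.8, 0 and 9.85 in WT, with a log2 fold change of 1.28 over all libraries and -0.32 without WT 2. Of the 2 other class III kinases, Pdgfrb, a receptor for PDGF, was tested, at 2143, 2013 and 1888 in Stat3β TG against 2040, 4359 and 4917 in WT (log2 fold change -0.81, standard error 0.31, limma adjusted p = 0.668). As in Flt3, WT 2 and WT 3 lay above Stat3β TG, and in Pdgfrb WT 1 was within its range.

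Signalling genes below the receptors split evenly between the directions. Of 18 proximal signalling genes, which include JAK kinases, STAT5 and adaptor proteins, 9 were higher and 9 lower (median 0.01 on the log2 scale). Lyn, a SRC-family kinase, was at 7178 to 8806 normalized counts in Stat3β TG and 5077 to 7548 in WT, and these groups overlapped. Vav1, a signalling protein of haematopoietic cells, was at 14137 to 15223 in Stat3β TG and 11514 to 13978 in WT, without overlap. Of 11 negative regulators 5 were higher and 6 lower (median -0.14 on the log2 scale), 2 of them at an unadjusted p under 0.05, against 6.10% of all genes. By edgeR 4 were higher and 7 lower. Ptpn6, the phosphatase SHP-1, had 23032, 18326 and 18153 in Stat3β TG against 16837, 11669 and 13120 in WT, with no overlap (log2 fold change 0.52, standard error 0.19, limma adjusted p = 0.668). Socs1, a feedback inhibitor of JAK kinases, had 102, 172 and 88.2 in Stat3β TG against 140, 330 and 722 in WT (log2 fold change -1.47, standard error 0.59, limma adjusted p = 0.668). Cblb, a ubiquitin ligase, was at 1148 to 1373 in Stat3β TG and 1136 to 2523 in WT.

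Genes known to respond to STAT5, and transcription factors known to act at receptor genes, did not pass in any member. Of 11 STAT5 targets 5 were higher and 6 lower (median -0.08 on the log2 scale), 1 of them at an unadjusted p under 0.05 against 6.10% of all genes, Bcl6, a transcriptional repressor gene that STAT5 is known to repress, at 1182, 680 and 967 normalized counts in Stat3β TG against 606, 689 and 566 in WT. Ccnd3, a D-type cyclin, was at 8725 to 10773 in Stat3β TG and 6611 to 9378 in WT, and Id1, an inhibitor of helix-loop-helix factors, was at 1043 to 3177 and 2259 to 6829. Of 18 transcription factors 17 were tested, 13 higher and 4 lower (median 0.17 on the log2 scale), and 0 at an unadjusted p under 0.05. Gata2, a progenitor factor, was at 2370 to 2705 in Stat3β TG and 2854 to 4163 in WT, without overlap. Runx1, a factor that regulates many myeloid genes, was at 2171 to 4850 in Stat3β TG and 1485 to 2806 in WT, and Lmo2, a haematopoietic cofactor, at 11735 to 14631 and 8775 to 14339. Limma, edgeR and DESeq2 each passed 0 members of the ligand, receptor chain, kinase, signalling, regulator, target and factor lists.

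**Figure D4:**
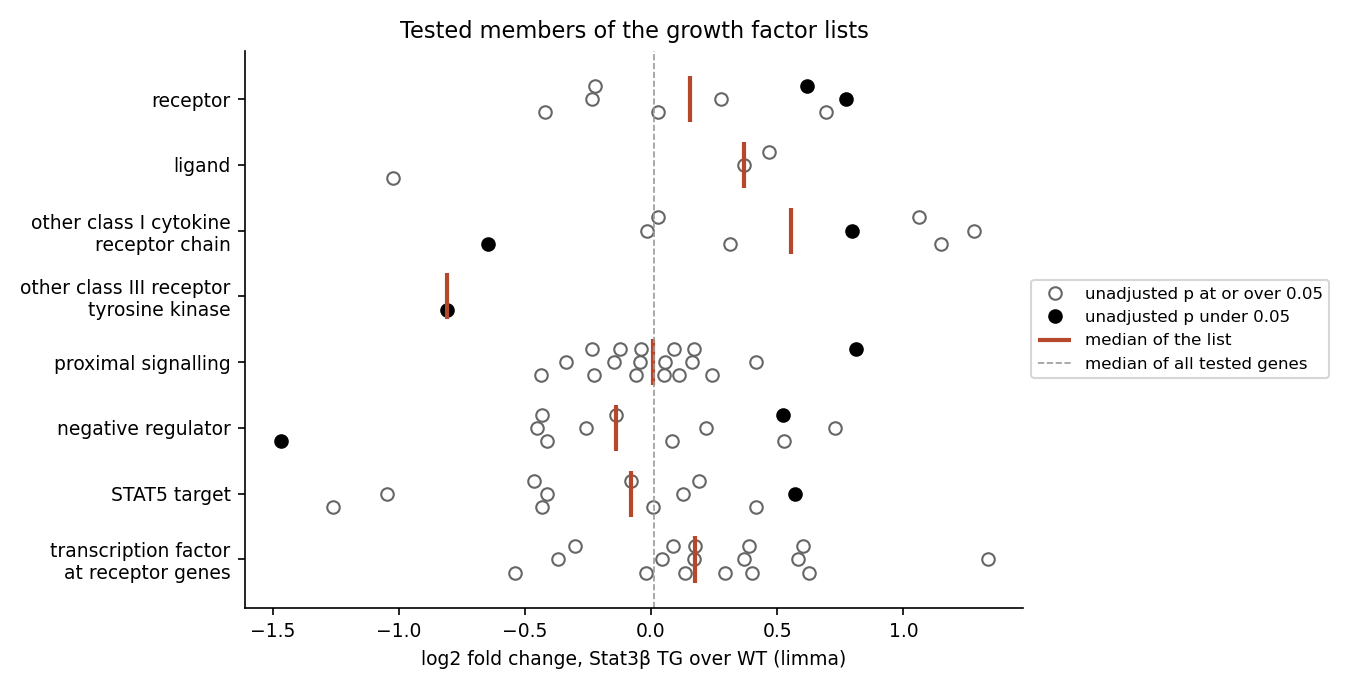
Log2 fold changes of Stat3β TG over WT (horizontal axis) for the tested members of 8 gene lists; filled points have an unadjusted p under 0.05, open points do not, red bars are list medians and the dashed line is the median of all tested genes, 0.01. Medians run from -0.81 for the single class III kinase tested to 0.55 for other class I chains, and the receptors lie at 0.15.

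Marker genes were set beside the receptors to show which cells the libraries could hold. The 6 genes of blast identity were abundant in all libraries, summing to 84345 to 117038 normalized counts in Stat3β TG and 60797 to 114601 in WT. By limma 3 were higher and 3 lower in Stat3β TG, and by edgeR 5 and 1. Mpo alone was at 9999 to 61536 in Stat3β TG and 12287 to 50082 in WT. Cd34 was at 3726, 4999 and 8057 in Stat3β TG against 8061, 8029 and 8291 in WT (log2 fold change -0.61, limma adjusted p = 0.668). Cd34 was the 1 of the 6 at an unadjusted p under 0.05, against 6.10% of all genes. Its part in the receptor differences was not tested. Of 4 tested eosinophil markers 3 were lower, as were 6147 of all 12642 tested genes. Of these 3, 1 (Prg2) passed by DESeq2, as did 0.134% of all genes, while limma and edgeR passed 0 genes. All 5 eosinophil markers summed to 12014, 6927 and 6503 in Stat3β TG against 51354, 9770 and 32788 in WT. The part of eosinophil-type expression in the receptor differences was not tested.

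The 6 mast cell markers summed to 5171, 2586 and 4872 in Stat3β TG against 6455, 885 and 3107 in WT, nearly all from Cpa3 and Hdc. Of the 3 tested, Cpa3 (497 to 3722 in Stat3β TG and 506 to 1617 in WT) and Ms4a2 (40.6 to 158 in Stat3β TG and 13.5 to 109 in WT) had higher means in Stat3β TG. Hdc averaged 2097 in Stat3β TG and 2386 in WT, so its means ran the other way, although its limma log2 fold change was 0.41. The untested Mcpt4, Cma1 and Tpsb2 were at or under 2.71 in every library. Kit is also expressed by mast cells, and the part of mast cell expression in its values was not tested. Dendritic cell markers, whose cells depend on Flt3, summed to 83.7, 105 and 192 in Stat3β TG against 79.4, 100 and 49.3 in WT, and their part in the Flt3 values was not tested. Among the markers of cells that the host lacks, T cell markers summed to 8.62 to 36.0 in Stat3β TG and 1.41 to 38.1 in WT, with Cd3e at 0 throughout, B cell markers to 19.1 to 46.2 and 23.0 to 32.7, and NK cell markers to 66.5 to 112 and 7.04 to 124. Erythroid markers summed to 44.8 to 91.0 in Stat3β TG and 37.99 to 181 in WT, with Hbb-bt at 0. Megakaryocyte markers summed to 928 to 1976 in Stat3β TG and 688 to 2389 in WT, nearly all from Itga2b, with Pf4 at or under 5.41. Stroma and endothelium markers summed to 3802 to 5322 in Stat3β TG and 3042 to 5355 in WT, nearly all from Pecam1, which myeloid cells also express, with Cdh5 at or under 7.87.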

How the data were processed

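RNA sequencing was analysed in 3 Stat3β TG and 3 WT libraries, grouped by their titles. FastQC, STAR, DESeq2 and the build GRCm38 (mm10) are listed, without roles, per the submitters' processing notes. Tool versions, the counting step, strand, multiply mapped reads and filters are not given in the labels or files used. The table deposited by the authors holds normalized counts (a non-negative signal), a column for each library, under Entrez gene IDs. In each library all values were whole multiples of 1 step (100% of 146724 values within 0.001), so whole reads were recovered.

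The members and lists were chosen with earlier results of these data known. Symbols and coordinates came from RefSeq (GRCm38.p6) for 24376 of 24454 IDs, and exon lengths, strands and transcripts from GENCODE M21. All 143 list entries were matched. Genes with at least 10 normalized counts in at least 3 libraries were tested (12642), as log2(normalized count + 1), with limma 3.58.1 in R 4.3.3 (trend, robust, group only, two-sided, Benjamini-Hochberg, threshold 0.05). Fold changes of low genes can be understated on this scale, but not always. For Il5ra, at 0 in WT 2, limma gave a log2 fold change of 1.28 and edgeR -0.29. On recovered reads, edgeR 4.0.16 (quasi-likelihood, TMM) and DESeq2 1.42.0 were alternatives, with other pseudocounts, filters, scalings, a replicate block and libraries left out. The fits were tested on simulated counts. All receptors were named, with the 3 list members of smallest p (1 is not reported here), direct partners, and the 2 genes most alike each receptor. The limit of 3 reads for a count of 0 covers counting error only.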

Additional observations from a re-analysis of the deposited data

How the results depend on the processing

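Over 30 alternatives for each receptor, Csf2ra, Csf3r and Csf2rb2 kept their direction, with log2 fold changes of 0.28 to 0.94, 0.23 to 1.28 and -0.44 to -0.026. Genes that passed over the whole table numbered 0 by limma, 17 by DESeq2, 9 with WT 1 and 740 with WT 2 as the only WT library, and 0 to 346 by limma with 1 library left out. With 1 library left out, edgeR passed 0 to 5 (5 without WT 2), and DESeq2 passed 2023 without WT 1, 39 without WT 2, 33 without WT 3, and 12, 18 and 35 without Stat3β TG 1, 2 and 3. Receptors that passed numbered 0 to 1 by limma with 1 library left out, 3 with WT 2 as the only WT library, 5 by DESeq2 without WT 1, and 0 by edgeR with any 1 library left out. With WT 1 as the only WT library, the sign turned for Csf1r (-0.10), Csf2rb (0.042), Flt3 (1.98), Kit (-0.11), Csf3 (0.21), Il21r (-0.39), Cblb (0.16), Lmo2 (-0.079) and Il5ra (-1.70). With 1 library left out, by limma, Il3ra ran from -0.11 to 0.21, Flt3 from -1.32 to 0.34, Kit from -0.29 to 0.65 and Il5ra from -0.32 to 2.77, while Flt3 stayed negative by DESeq2 and edgeR. Il3ra was -0.13 with WT 2 as the only WT library, -0.065 by DESeq2 and -0.062 by edgeR without WT 1, and -0.11 by both without Stat3β TG 3. Kit was -0.29 by both without WT 2 and -0.062 by both without Stat3β TG 1. Il5ra was -0.29 by edgeR and -0.27 by DESeq2. The cause was not tested. The alternatives by DESeq2 and edgeR with a library left out were chosen after seeing the data.

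Same-numbered libraries had correlations of 0.141, 0.0995 and -0.107 in their deviations from group means. Differently numbered libraries had correlations of -0.202 to 0.143. With 3 libraries in each group, these values cannot decide whether the numbers pair the samples. A fit with the replicate number as a block passed 0 genes and 0 receptors by limma, with 934 genes at an unadjusted p under 0.05, against 771 without the block. Scalings moved the median of all genes by under 0.1. Depth limits the ligands near 0 and Il5ra, not the receptors.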
